A study of Mus musculus with 9 samples.

Results

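The genes described here are the securin Pttg1, the separase Espl1 and 8 genes of the cohesin ring and its regulators (Rad21, Smc1a, Smc3, Stag1, Stag2, Wapl, Nipbl and Pds5b), 10 of the 48526 genes in the expression table, found by their Ensembl identifiers. Pttg1 was chosen by its own values in these libraries, because it was higher in the knockout group while other mitotic genes were lower, so the group values of the 10 genes, and whether the fit over all genes called them, are given as a description, without p-values. All 10 passed the filter on low values, a mean of at least 10 normalized counts over all libraries. RNA was sequenced from medial ganglionic eminence (MGE) tissue, a ventral forebrain zone that produces interneurons of the cortex, of mouse embryos at embryonic day 14.5. Control replicates 1, 2 and 3 were Nkx2.1-cre; Rosa26-YFP, control replicate 4 was Nkx2.1-cre; Ctnnb1fl/wt; Rosa26-YFP, and the 5 knockout libraries were Nkx2.1-cre; Ctnnb1fl/fl; Rosa26-YFP, all labelled C57BL/6. Ctnnb1 encodes beta-catenin, and the Cre recombinase is driven by Nkx2.1, so cells of the dissected tissue without Nkx2.1 history keep intact Ctnnb1 alleles. Every library, controls included, carries the Cre and the fluorescent reporter. The protocol speaks of cells being collected or tissue being removed without tying either to a library. No source used here says whether the libraries came from separate embryos or litters, or how far each allele had been bred onto the C57BL/6 strain. The spread between libraries may in part be technical. Pttg1 transcript level is known to differ between inbred mouse strains, and the part of strain background in its values was not tested.

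Sister chromatids are held together from replication to anaphase by cohesin, a ring made of Smc1a, Smc3 and the kleisin Rad21, to which Stag1 or Stag2 binds. Nipbl loads the ring, Wapl opens it, and the Pds5 proteins act in both its release and its protection. Separase is the protease that cuts Rad21 at anaphase, and securin is its bound inhibitor and chaperone, degraded through the anaphase-promoting complex. Cohesin also acts outside mitosis, in shaping chromatin loops, and is therefore made in neurons as well as in dividing progenitors, whereas securin and separase are best known from dividing cells.

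The sequences just before the RefSeq start sites of 4 of the genes (GRCm38.p6) are shown. Pttg1 and Espl1 were taken as partners in 1 complex that moved in opposite directions, and Stag1 and Smc3 as 2 cohesin genes. Capitals mark matches, on either strand, to TTTGAA (the cell cycle genes homology region, or CHR, found in many late cell cycle promoters), CCAAT (the CCAAT box, bound by NF-Y; ATTGG when read on the other strand) or TTCCCGC (an E2F site). CTTTGA, a TCF/LEF site that overlaps TTTGAA in the letters TTTGA, was searched too. The stretches lie at chr11:43425982-43426173 on the minus strand (Pttg1), chr15:102296043-102296292 (Espl1), chr9:100643198-100643447 (Stag1) and chr19:53600146-53600395 (Smc3), the last 3 on the plus strand, and each is written 5′ to 3′ in the direction of its gene.
Pttg1: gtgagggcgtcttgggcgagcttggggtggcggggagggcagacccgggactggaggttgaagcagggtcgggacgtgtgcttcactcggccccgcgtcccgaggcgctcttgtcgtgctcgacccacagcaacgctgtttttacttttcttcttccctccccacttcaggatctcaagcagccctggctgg
Espl1: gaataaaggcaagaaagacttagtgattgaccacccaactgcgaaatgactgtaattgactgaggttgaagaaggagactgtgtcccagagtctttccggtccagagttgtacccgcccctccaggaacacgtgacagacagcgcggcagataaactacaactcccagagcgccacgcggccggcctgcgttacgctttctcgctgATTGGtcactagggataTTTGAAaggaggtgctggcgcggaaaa
Stag1: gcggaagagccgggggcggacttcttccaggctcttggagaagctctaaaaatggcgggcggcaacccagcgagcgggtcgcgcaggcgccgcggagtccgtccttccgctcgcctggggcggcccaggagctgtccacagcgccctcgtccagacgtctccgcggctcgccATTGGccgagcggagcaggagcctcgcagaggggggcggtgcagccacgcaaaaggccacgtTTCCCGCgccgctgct
Smc3: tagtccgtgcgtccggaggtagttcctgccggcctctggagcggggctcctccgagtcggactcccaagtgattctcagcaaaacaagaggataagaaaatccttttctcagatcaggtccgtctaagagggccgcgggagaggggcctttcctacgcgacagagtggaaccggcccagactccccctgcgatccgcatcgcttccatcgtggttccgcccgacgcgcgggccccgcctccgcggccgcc

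The Espl1 stretch held a CHR match beginning 27 bases before the start and a CCAAT box 44 bases before it. The search ran over 300 bases around each start, 250 before it and 50 after it, and the Pttg1 window held none of the 4 motifs. In GENCODE M21, Pttg1 (ENSMUSG00000020415) spans chr11:43420250-43426251. Its outermost start lies upstream of the RefSeq start, and the window does not reach it. The printed Pttg1 stretch lies wholly inside this span. It begins directly after an annotated exon of a coding Pttg1 transcript, so it is not sequence upstream of the whole gene. The sequence before the outermost start was not searched for motifs. Stag1 spans chr9:100597798-100959375 in the same annotation, so its printed stretch also lies inside the gene. The Espl1 and Smc3 stretches reach or border the outermost starts of their genes. Windows were found for 7 of the 10 genes, and of these 2 held TTTGAA (Espl1 and Pds5b), 5 held CCAAT, 2 held TTCCCGC (Stag1 and Smc1a) and 0 held CTTTGA. The Smc3 window, like that of Pttg1, had no match. Among all 32851 windows the shares were 17.9% for TTTGAA, 37.4% for CCAAT, 4.6% for TTCCCGC and 16% for CTTTGA. A list of 55 mitosis genes (spindle motors, cyclins, kinetochore and cytokinesis genes) had 48 windows, of which 33 (68.8%) held TTTGAA and 34 (70.8%) held CCAAT. These matches describe letters in fixed windows and not binding. For Pttg1 the lack of a match covers the window around the RefSeq start only, so it does not tell what lies before the outermost start.

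Library totals ranged from 5120585 to 5569444 reads. Ctnnb1, the floxed gene, was lower in every knockout library than in any control (9828 ± 197 normalized counts (SD, n = 4) in controls and 6789 ± 828 (n = 5) in knockouts; log2 fold change -0.54, SE 0.096, limma adjusted p = 0.000811). Of 13780 genes tested with limma, 17.2% were called higher and 17.3% lower in knockouts at an adjusted p under 0.05, with a median log2 fold change of -0.01; the groups were apart, with no overlap, with the knockouts above for 14.5% of genes and below for 14.6%. Of the defining markers of the labelled tissue, Nkx2-1 was at 3466 to 6698 normalized counts in every library. The 10 MGE markers together summed to 19371 to 33021 in controls and 31082 to 38832 in knockouts, and 7 were called higher and 0 lower (median log2 fold change 0.55), with Gad1 highest (1.23) and Nkx2-1 lowest (-0.36, not called). Control replicate 1 carried more transcripts of neighbouring tissue, with 12 dorsal telencephalon markers summing to 6253 normalized counts against 2102 to 2822 in the other libraries, and 8 choroid plexus markers to 3031 against 168 to 737. Neuron markers differed between the groups (9 of 12 called higher, 0 lower), summing to 18153 to 23074 in controls and 31983 to 40619 in knockouts, and radial glia markers (0 of 11 higher, 5 lower) to 19038 to 24906 and 12516 to 15223. The mean log2 level of the radial glia list, which weights its genes equally, overlapped between the groups (9.53 to 9.87 in controls and 9.11 to 9.67 in knockouts), and Slc1a3 (log2 fold change 0.23), Glul (0.17) and Pax6 (1.09, SE 1.32) were not called. No marker of these 3 lists was at 0 in all libraries. In bulk tissue, fewer cells of a type and less RNA per cell cannot be told apart, and the part of cell composition in the values below was not tested.

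Pttg1 stood at 78.8, 62.6, 64.3 and 68.8 normalized counts in control replicates 1 to 4 and at 221, 253, 257, 195 and 150 in knockout replicates 1 to 5. The lowest knockout library was above the highest control, and the control with 1 floxed allele lay among the other controls. The means were 68.6 ± 7.29 (SD, n = 4) and 215 ± 44.2 (n = 5), a 3.13-fold difference (log2 fold change 1.61, SE 0.157), which placed Pttg1 at rank 192 of 13780 genes ordered from the largest positive log2 fold change.

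Espl1, the protease that securin inhibits, moved the other way, with 706, 906, 1011 and 857 normalized counts in controls and 609, 709, 512, 491 and 366 in knockouts. The groups overlapped by a single pair of libraries, since knockout replicate 2 lay just above control replicate 1. The means were 870 ± 127 and 537 ± 129, so the knockout level was 61.7% of the control level (log2 fold change -0.72, SE 0.169).

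Among the subunits of the ring, Rad21, the part that separase cuts, had 3559, 3799, 3812 and 3545 normalized counts in controls and 2812, 3001, 2676, 2594 and 2083 in knockouts. Smc1a, the X-linked partner of Smc3, had 2273, 2119, 2279 and 2444 in controls and 1872, 1812, 1693, 1650 and 1326 in knockouts. Smc3, the subunit that is acetylated when cohesion is set up, had 1449, 1482, 1460 and 1529 in controls and 1333, 1322, 1220, 1222 and 943 in knockouts. For all 3 core subunits every knockout library lay below every control. The knockout level was 71.6% of control for Rad21 (log2 fold change -0.49, SE 0.101), 73.3% for Smc1a (-0.46, SE 0.102) and 81.6% for Smc3 (-0.30, SE 0.101).

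The 2 alternative Stag subunits, which set where the ring sits, were both lower. Stag2, also X-linked, had 1259, 1319, 1243 and 1419 normalized counts in controls and 961, 1072, 920, 864 and 536 in knockouts, 66.5% of the control mean (log2 fold change -0.62, SE 0.164). Stag1 had 892, 890, 857 and 961 in controls and 787, 826, 792, 729 and 643 in knockouts, 83.9% of the control mean (-0.26, SE 0.0904). Both had separate groups, and knockout replicate 5 was lowest for each. By Xist and Ddx3y the controls were 2 female and 2 male libraries and the knockouts 2 female and 3 male, and with sex as a covariate in limma Smc1a (-0.44) and Stag2 (-0.60) were still called lower, while Stag1 (-0.25) was not.

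Among the 10 genes, the loading and release factors were not called. Wapl, which opens the ring, had 705, 728, 794 and 797 normalized counts in controls and 703, 722, 638, 695 and 520 in knockouts (log2 fold change -0.21, SE 0.103). Pds5b had 825, 951, 998 and 1024 in controls and 781, 876, 733, 914 and 641 in knockouts (-0.27, SE 0.110). The groups overlapped for both, with means of 86.7% of control for Wapl and 83.1% for Pds5b, the latter close to Stag1. Nipbl, the loader, had 959, 1097, 1088 and 1062 in controls and 1064, 1120, 931, 1147 and 880 in knockouts, with the highest library of all in the knockout group (-0.04, SE 0.0967). Its means, 1052 ± 63.3 and 1028 ± 118, differed by less than the SD of either group.

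In all, 1 of the 10 genes was called higher (17.2% of all genes tested), 6 were called lower (17.3%) and 3 were not called. The groups were apart for 1 gene with knockouts above (14.5% of all genes) and for 5 with knockouts below (14.6%). Since Pttg1 and the direction of the mitotic genes were selected on this contrast, nothing is read from these counts. Knockout replicate 5 had the lowest knockout value for 10 of the 10 genes, Pttg1 included, and knockout replicate 2 the highest for 5. Among the controls, replicate 1 had the lowest value for 5 genes and replicate 4 the highest for 6. Calls at the margin shifted over 20 other settings of the same libraries, with Smc3 called lower in 11, Stag1 in 8 and Pds5b in 3.

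**Figure D1:**
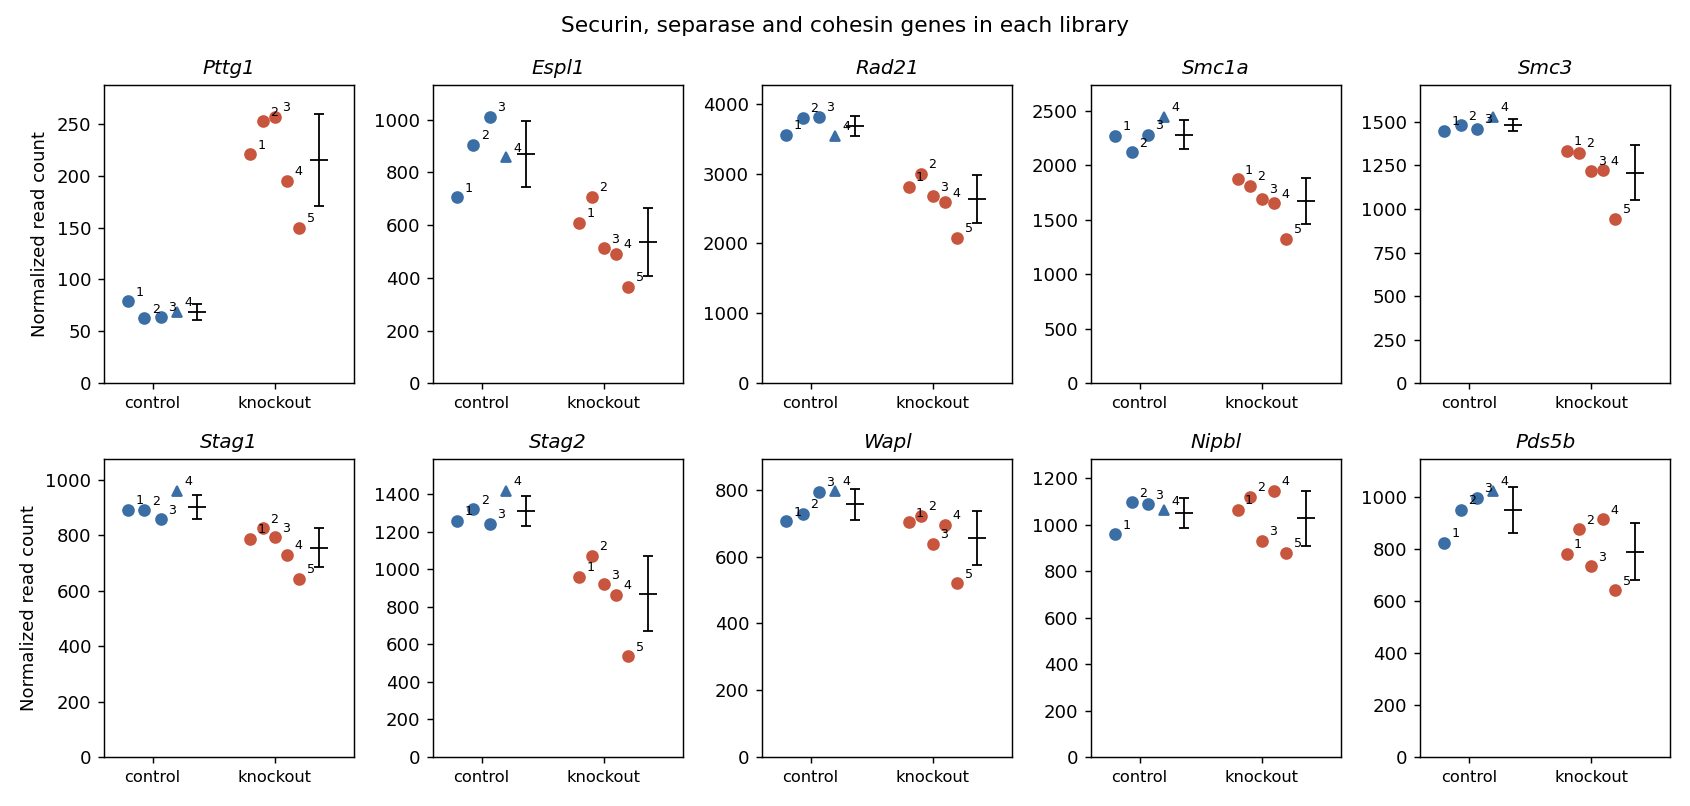
Normalized read counts (vertical axes, each starting at 0) of the 10 genes in each of the 4 control (blue) and 5 knockout (red) libraries, numbered by replicate, with the mean and SD as black bars; the triangle is the control with 1 floxed Ctnnb1 allele. Pttg1 is above all controls in every knockout library, Rad21, Smc1a, Smc3, Stag1 and Stag2 are below them, and knockout replicate 5 is the lowest knockout library in all 10 panels.

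To compare levels between genes, counts were divided by the length of all exons of the gene in kb. In controls, Pttg1 was the lowest of the 10 genes, with 34.3 ± 3.65 normalized counts per kb, and Rad21 the highest, with 869 ± 34.6. Between them came Smc1a (395), Smc3 (267), Stag2 (158), Wapl (114), Nipbl (112), Espl1 (99.4), Pds5b (96.5) and Stag1 (76.4), and neighbours in this order from Wapl to Pds5b overlapped between libraries, while the others did not. In knockouts Pttg1 had 108 ± 22.1 per kb, close to Nipbl (109), Stag2 (105) and Wapl (99.0), with overlapping libraries. Per kb of the principal transcript it had 72.4 ± 7.69 in controls, again the lowest, and 227 ± 46.6 in knockouts, above Stag2 (146), Nipbl (109) and Wapl (103), so its place in the order depends on the length used. The order of the other genes in controls also moved, with Stag1 (145) above Pds5b (128), Wapl (119) and Nipbl (112). Per kb of all exons in knockouts, Espl1 became the lowest in mean, at 61.4 ± 14.8, overlapping Stag1 at 64.1.

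The ratio of securin to separase transcript, both per kb of exon, was 0.488, 0.302, 0.278 and 0.351 in control replicates 1 to 4 and 1.58, 1.56, 2.20, 1.74 and 1.80 in knockout replicates 1 to 5. It lay below 1 in every control and above 1 in every knockout library, with means of 0.355 ± 0.0938 and 1.78 ± 0.256. With the length of the principal transcript in place of all exons the means were 0.570 ± 0.151 and 2.85 ± 0.410, so the absolute ratio depends on the lengths taken for both genes, while the order of the group means was the same with both. The ratio combines the values that chose Pttg1 and is a description.

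Relative to the summed counts of the 55 mitosis genes, Pttg1 had 12.1, 9.27, 9.45 and 9.69 counts per 10000 in controls and 50.3, 48.6, 62.6, 51.6 and 52.9 in knockouts. The means were 10.1 ± 1.32 and 53.2 ± 5.52, a 5.25-fold difference. The rise of Pttg1 and the fall of mitotic genes were both part of how it was chosen, so this ratio is a description. Espl1 on the same scale had 128 ± 17.3 and 132 ± 5.70, a ratio of 1.03, so its mean differed by about as much as the sum of the mitosis genes. The cohesin genes lay between these, from 1.11-fold for Stag2, 1.21-fold for Rad21 and 1.25-fold for Smc1a to 1.48-fold for Wapl and 1.68-fold for Nipbl. On this scale every cohesin gene had a higher mean in knockouts, since their levels were reduced by less than those of the mitosis genes or, for Nipbl, hardly differed.

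**Figure D2:**
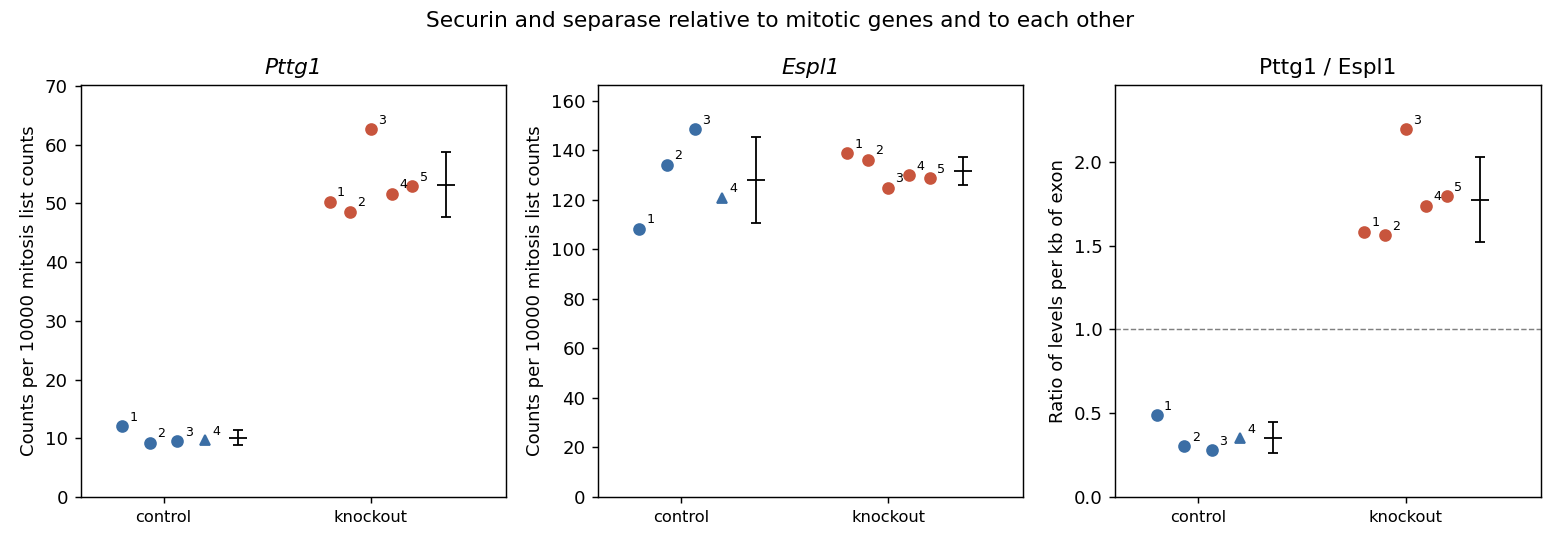
Counts of Pttg1 and of Espl1 per 10000 counts of the 55 mitosis genes (left, middle) and the ratio of Pttg1 to Espl1 per kb of exon (right; dashed line at 1) in each control (blue; triangle, 1 floxed allele) and knockout (red) library, with mean and SD in black and all axes starting at 0. Pttg1 sits near 10.1 in controls and 53.2 in knockouts, Espl1 stays at 128 and 132, and the ratio crosses 1. The left and right panels combine values that chose Pttg1.

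The lists around these genes were counted in the same limma fit. Since the fall of mitotic genes was part of how Pttg1 was chosen, and many genes of these lists act in mitosis, the lower ones are given as a description. Of 19 measured cohesin partners among 21 listed, 12 (63.2%) were lower and 1 (5.26%) higher, against 17.3% and 17.2% of all genes, with a median log2 fold change of -0.74 against -0.01 for all genes. The lower ones included Cdca5 (sororin, which protects cohesin from Wapl), at 442 ± 33.0 normalized counts in controls and 236 ± 58.3 in knockouts (log2 fold change -0.94, SE 0.171). Sgo1 (shugoshin, the guardian of centromeric cohesin) had -0.94 (SE 0.173), the clamp loader subunit Chtf18 had -0.93 (SE 0.160) and the helicase Ddx11 had -0.79 (SE 0.148). The acetyltransferase Esco2, which acts on Smc3 in S phase, was lower (-1.05, SE 0.253), whereas its relative Esco1 was not called (0.23, SE 0.133), and Pds5a, the paralog of Pds5b, was lower (-0.43, SE 0.124). These 3 were named after their values were seen.

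The 1 cohesin partner called higher was Mau2, the partner of Nipbl in the loader, with 609, 798, 745 and 690 normalized counts in controls and 880, 879, 909, 929 and 930 in knockouts. Its groups did not overlap (log2 fold change 0.36, SE 0.0893, limma adjusted p = 0.00705). When the controls were limited to replicates 2 and 3 it was 0.23 (limma adjusted p = 0.0826) and no longer called.

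Of 33 anaphase control genes, 16 (48.5%) were lower and 0 higher, against 17.3% and 17.2% of all genes (median -0.30). Those named by the smallest p were spindle checkpoint genes, Bub1b (-0.82, SE 0.132), Bub3 (-0.72, SE 0.123), Bub1 (-0.90, SE 0.152) and Ttk (-0.85, SE 0.150). Cdc20, the activator through which the anaphase-promoting complex degrades securin, was lower (1261 ± 78.3 to 865 ± 171 normalized counts, -0.57, SE 0.135), while Fzr1, the other activator, was not called (-0.04, SE 0.0858). Of the complex's own subunits, Cdc27 (-0.35, SE 0.124) was called lower and no other on the list was called. Pttg1ip, whose product binds securin, had 286 ± 18.0 and 307 ± 25.2 normalized counts and was not called (0.10, SE 0.0952). Cdc20, Fzr1, Cdc27 and Pttg1ip were also named after their values were seen.

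Of the 55 mitosis genes, 54 (98.2%) were lower and 0 higher (median -0.77), the exception being the kinetochore gene Ska2 (-0.25, SE 0.110, not called), and this direction was part of how Pttg1 was chosen. Kif23 (-0.73, SE 0.111), Ccnb1 (-0.77, SE 0.120), Ckap2l (-0.79, SE 0.124) and Kif11 (-0.82, SE 0.128) had the smallest p. A list of 16 genes held condensin and the SMC5/6 complex, relatives of cohesin, with Smchd1 and Eid1, which are subunits of neither. Of these, 13 (81.2%) were lower and 1 (6.25%) higher, against 17.3% and 17.2% of all genes (median -0.52). Ncaph (-0.91, SE 0.138), Ncapd2 (-0.65, SE 0.126) and Smc2 (-0.89, SE 0.177) belong to condensin and Smchd1 (-0.51, SE 0.114) is a noncanonical SMC protein. The higher gene was Eid1, an inhibitor of differentiation that binds EP300 (0.40, SE 0.117, limma adjusted p = 0.0160), which was 0.33 and no longer called without control replicate 3 (limma adjusted p = 0.0577).

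**Figure D3:**
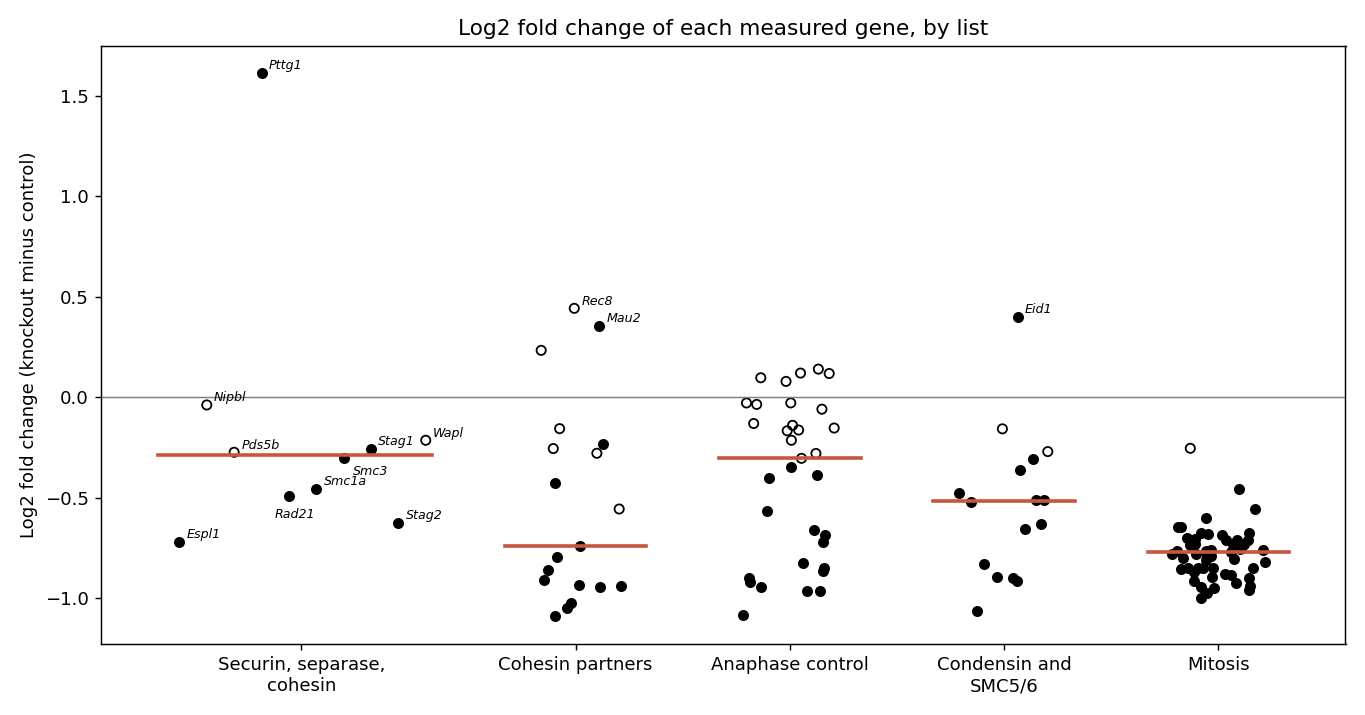
Log2 fold change (knockout minus control, log2 of normalized count + 1) of each tested gene in 5 lists; filled points were called by limma, open points were not, and red bars are list medians. Pttg1, at 1.61, stands above every other point, the cohesin genes lie between -0.62 and -0.04, and the mitosis genes lie below 0.

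Variation between libraries of the same group was then described by subtracting each group's mean of log2(normalized count + 1), which removes the contrast that chose Pttg1. Over the 9 libraries, Pearson r of these deviations with those of the mean of the mitosis list was 0.84 for Pttg1, 0.88 for Espl1, 0.94 for Rad21, 0.96 for Stag2 and 0.60 for Nipbl. The points share library depth, dissection and cell makeup. The relation rests on the knockout libraries, in which the mitosis mean ranged from -0.50 to 0.39 around its group mean, against -0.04 to 0.06 in controls. Without knockout replicate 5 r for Pttg1 was 0.50 (8 libraries), without knockout replicates 2 and 5 it was 0.36 (7 libraries), and without control replicate 1 it was 0.92 (8 libraries).

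Over all libraries the deviations of Pttg1 went with those of the mitotic genes, although its group means moved the other way. Much of this rested on knockout replicates 2 and 5. Of 10321 genes outside the mitosis list with a mean of at least 50, 740 had r of at least 0.8 with the mitosis mean. Of these, 564 were called lower, 175 were not called and 1, Pttg1, was called higher. Over all genes tested, 17.3% were called lower and 17.2% higher. Pttg1 was chosen for rising while mitotic genes fell, so nothing is read from its place in these counts. Without control replicate 1 the numbers were 1004 and again 1 higher, but without knockout replicate 5 Pttg1 was no longer among the 283 genes that passed, and 0 of these were higher. Without knockout replicates 2 and 5, 306 genes passed, 3 of them higher, and Pttg1 was again not among them. In the 5 knockout libraries alone 1768 passed, of which 16 were higher, so Pttg1 was the single such gene only in some of these choices.

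**Figure D4:**
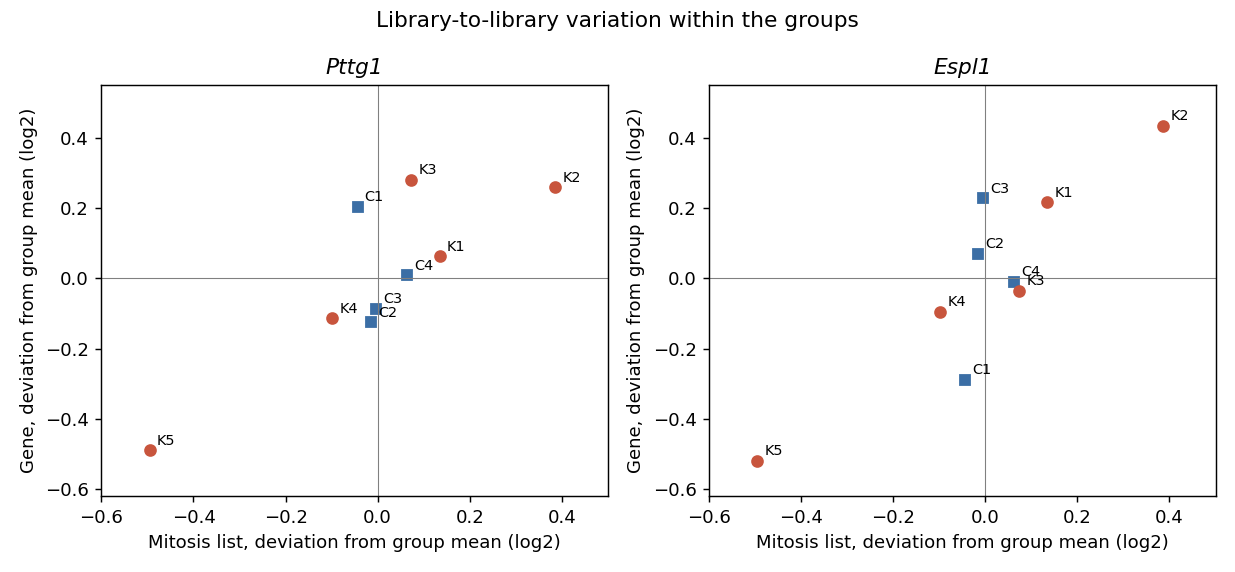
Deviation of each library from its group mean (log2) for Pttg1 (left) and Espl1 (right) against the deviation of the mean of the mitosis list; blue squares are controls (C1 to C4) and red circles knockouts (K1 to K5). Both genes follow the mitosis list among the knockouts, from K5 at -0.50 to K2 at 0.39, while the controls hardly spread along the horizontal axis.

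With the members themselves, r of Pttg1 over the 9 libraries was 0.86 for Stag1, 0.83 for Stag2, 0.79 for Smc1a, 0.77 for Smc3, 0.74 for Rad21, 0.59 for Wapl, 0.53 for Espl1, 0.26 for Pds5b and 0.19 for Nipbl. Most of this came from knockout replicate 5. Without it r was 0.60 for Stag1, 0.38 for Stag2, 0.32 for Smc1a, 0.06 for Smc3, 0.11 for Rad21, -0.38 for Wapl, -0.10 for Espl1, -0.64 for Pds5b and -0.74 for Nipbl.

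The genes most like Pttg1 by this measure, among 9694 candidates with a mean of at least 50 after leaving out predicted genes and clone names, were Exosc2, a subunit of the RNA exosome (r 0.99), Birc5, or survivin, of the chromosomal passenger complex (0.98), Ola1, an ATPase (0.97), Prdx6, a peroxiredoxin (0.97), and Xrcc5, the Ku80 subunit of DNA end joining (0.97). All 5 were called lower in knockouts, opposite to Pttg1, with log2 fold changes from -0.90 (Prdx6) to -0.43 (Xrcc5). The most unlike were the unconventional myosin Myo7a (-0.97), Rnft2 (-0.94) and Btbd9 (-0.94), all called higher. Without knockout replicate 5, r was 0.92 to 0.97 for the first 5 and -0.93 to -0.85 for the last 3. These genes were picked by r over libraries that include the ones used here, so strong values follow in part from the choice.

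The surroundings of Pttg1 on chromosome 11 were looked at next. The nearest gene, Slu7, which encodes a splicing factor and starts 7493 bp from Pttg1, had 450 ± 14.7 normalized counts in controls and 471 ± 32.6 in knockouts (log2 fold change 0.06, SE 0.0843, limma adjusted p = 0.604). Mir146 and Gm12148 were at 0 in every library, and Gm12151 and C1qtnf2, at means of 2.17 to 5.53, were below the filter. Slu7 was thus the only annotated gene within 100 kb with enough counts, and its groups overlapped. In a window of 5 Mb on either side, chosen after the data were seen, 26 of 111 genes were tested, of which 6 (23.1%) were higher and 7 (26.9%) lower, against 17.2% and 17.3% of all genes (median -0.05). No other gene matched the 741 bases of the transcript Pttg1-202 in a blastn search (0 matches), and the annotated genes that overlap the 10 genes reached at most 2.98 normalized counts in any library, where the table lists them.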

How the data were processed

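RNA-seq libraries of 4 control and 5 knockout samples were compared, grouped by the genotype label. The deposited table gives a normalized signal for each gene, which its values show to be reads scaled by a size factor for each library (0.989 to 1.05): all values above 0 were whole multiples of 1 step within 0.01. The submitters' processing notes name the mm10 build, DESeq2, HTSeq 0.9.1, TopHat2 2.1.1 and R 3.4.0. No source used here states the annotation or strand setting, so overlapping antisense reads could not be separated. Of 48526 identifiers, 48058 matched a symbol.

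Values were transformed to log2(normalized count + 1). The 13780 genes whose mean reached 10 were tested in limma 3.58.1 (R 4.3.3, statmod 1.5.0; trend and robust), two-sided, and called at a Benjamini-Hochberg adjusted p under 0.05. Fold changes of low genes are understated on this scale. The fit was tested on simulated data. Positions are from GENCODE M21, sequences around start sites from RefSeq (GRCm38.p6), and Pttg1-202 was searched with blastn 2.17.0 at an E value limit of 1e-05. The members and lists were chosen with earlier results of these data known. Named were the 10 genes, up to 4 genes per list with the smallest p, called genes moving against their list, genes within 100 kb of Pttg1, the 5 most like and 3 most unlike it, and Ctnnb1. Alternatives were the pseudocount, filter, scaling, limma options, sex, a replicate block, each library left out, control replicates 2 and 3 alone and, chosen after seeing the data, edgeR 4.0.16 on the recovered reads.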

Additional observations from a re-analysis of the deposited data

How the results depend on the processing

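The log2 fold change of Pttg1 ranged from 1.52 (pseudocount 8) to 1.74 over 20 alternatives, all on the libraries that chose it, so this is a range and no support. Leaving out 1 library at a time gave 1.54 to 1.74 for Pttg1, 4 to 7 members lower, 10 to 13 cohesin partners lower, 13 to 16 anaphase control genes lower, 10 to 13 condensin and SMC5/6 genes lower and 0 to 1 of these higher (0 without control replicate 3), and 1857 to 2390 genes higher and 1686 to 2417 lower over all genes. When the controls were limited to replicates 2 and 3, calls over all genes came to 1387 higher and 1112 lower, 3 members were lower (Espl1, Rad21 and Smc1a), cohesin partners gave 0 higher and 7 lower, and 10 anaphase control and 5 condensin and SMC5/6 genes were lower; this fit has 2 fewer controls. Smc2 (-0.82) was then no longer called. The mitosis list had 40 genes lower in this fit, against 54 in the main fit. With 1 library left out at a time, 52 to 55 mitosis genes were lower. Same-numbered libraries were not treated as pairs in the main fit. The r of their deviations was -0.12, -0.09, 0.14 and -0.04, which cannot tell whether they shared a litter or batch. The replicate block, in which knockout replicate 5 has no partner, gave 1.74 for Pttg1 and 4 members lower. Its fold changes for the 10 genes were the same as those without knockout replicate 5, so these settings are not separate estimates. No called result reversed; Nipbl, never called, was 0.02 without knockout replicate 5. edgeR on the recovered reads (100% of values whole within 0.01) called 2401 genes higher and 2314 lower. Counting noise limits genes near the minimum of 10 counts, and the lowest of the 10 genes had 62.6.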
